A study of Mus musculus with 11 samples.

Results

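Of the 11 libraries in the series, 6 came from acute myeloid leukaemia (AML) with almost no transcript of Ebf1, the gene of a transcription factor that commits progenitors to the B lineage, and they are described here as B-lineage-low AML. They were chosen by a level of Ebf1 under 100 CPM (the usual library-size unit, a gene's count scaled by the library's total count). Inside the limit Ebf1 stood between 0.0349 and 8.95 CPM, and outside it between 588 and 806 CPM. All mice had Flt3-ITD, a tandem duplication that activates the receptor tyrosine kinase gene Flt3, and NHD13, a transgene for the NUP98-HOXD13 fusion. The 3 control samples (1, 2 and 6) were Ifnar1 +/-, so they kept 1 copy of the gene, and the other 3 (1, 2 and 4) were Ifnar1 -/-. No Ifnar1 +/+ group was part of this comparison. Whether each sample was 1 mouse, and the age and sex of the mice, are not given in the labels, so the spread below is that between samples and may be partly technical. The question was which transcripts differ when leukaemia of this kind lacks the type I interferon receptor subunit IFNAR1, in a series whose title speaks of a variable dependence on interferon.

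Type I interferons bind a receptor of IFNAR1 and IFNAR2, whose kinases JAK1 and TYK2 phosphorylate STAT proteins, STAT2 among them. With IRF9 these form a factor that binds the interferon-stimulated response element (ISRE) in promoters of antiviral genes such as Isg15, Rsad2 and the Ifit and Oas families. In the blood system a low tonic interferon signal keeps many of these genes transcribed without infection. Flt3-ITD signals through STAT5 and the MAPK pathway, which induce their own inhibitors, among them the SOCS, Sprouty and SPRED proteins.

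The promoters of 6 interferon-stimulated genes are shown because they hold the ISRE letters and because these genes were lower in every Ifnar1 -/- library than in any Ifnar1 +/- library (values below). Isg15 and Rsad2 serve as markers of the comparison, and the others are the 4 stimulated genes with the smallest p among those that held a match. Each line is the 130 bases before the RefSeq transcript start, 5′ to 3′ on the gene's strand, on GRCm38.p6. Capitals mark the ISRE core GAAANNGAAA or its reverse complement TTTCNNTTTC, where N is any base. Isg15 lies at chr4:156200819-156200948 (minus strand), Rsad2 at chr12:26456453-26456582 (minus), Ifit1 at chr19:34640759-34640888 (plus), Oas1a at chr5:120907526-120907655 (minus), Mndal at chr1:173880188-173880317 (minus) and Ifi203 at chr1:173942493-173942622 (minus).
Isg15: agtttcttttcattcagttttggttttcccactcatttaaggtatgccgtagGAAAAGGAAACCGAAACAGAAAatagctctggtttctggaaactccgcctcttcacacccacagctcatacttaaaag
Rsad2: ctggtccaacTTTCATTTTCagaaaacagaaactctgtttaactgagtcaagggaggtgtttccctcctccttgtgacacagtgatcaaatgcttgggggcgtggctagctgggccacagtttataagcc
Ifit1: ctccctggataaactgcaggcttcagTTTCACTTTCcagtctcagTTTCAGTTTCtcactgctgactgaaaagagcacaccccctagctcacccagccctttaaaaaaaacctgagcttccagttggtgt
Oas1a: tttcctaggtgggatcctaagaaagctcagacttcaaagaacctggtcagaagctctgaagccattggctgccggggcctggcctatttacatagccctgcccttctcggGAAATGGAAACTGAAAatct
Mndal: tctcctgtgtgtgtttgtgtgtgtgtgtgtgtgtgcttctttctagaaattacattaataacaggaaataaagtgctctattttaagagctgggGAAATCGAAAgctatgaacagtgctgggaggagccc
Ifi203: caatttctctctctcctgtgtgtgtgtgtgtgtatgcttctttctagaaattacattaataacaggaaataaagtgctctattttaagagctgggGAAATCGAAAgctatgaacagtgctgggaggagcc
In Isg15 there were 3 overlapping matches, which began 78 to 66 bases before the start. Ifit1 held 2 separate matches and Oas1a 2 overlapping ones, the latter within 20 bases of the start. Mndal and Ifi203 encode PYHIN proteins from neighbouring, near-identical genes, and their windows share the same match, so reads of this pair may have been split between them. Among all 32851 RefSeq promoters, 2.98% held the ISRE letters in the 250 bases before the start, and counted by gene it was 3.46% of 27025. Of the interferon-stimulated genes tested, 49 had a promoter in the RefSeq table, and 15 of them (30.6%) held a match. By gene, a match stood before 6 of the 8 that were lower without overlap and before 9 of the other 41. Mndal and Ifi203 are both among the 6, so their shared match is counted once for each. The core of the interferon gamma activated site, TTCNNNGAA, which reads the same on both strands, stood before 5 of the 49 (10.2%) and before 8.13% of all genes (7.02% of promoters). A match is a description of letters and does not show that a factor bound there.

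The 6 libraries held 25724241 to 34697665 counts. Genes with 10 or more numbered 13265 to 14704 per library. Levels from here on are CPM scaled between the 6 libraries by the trimmed mean of M-values (TMM), given for Ifnar1 +/- libraries 1, 2 and 6 and then, where the word against joins them, for Ifnar1 -/- libraries 1, 2 and 4. B-lineage transcripts were low in all 6 but not equal. Ebf1, whose level chose the libraries, had 1.28, 8.01 and 0.369 CPM in Ifnar1 +/- and 0.0286, 0.0489 and 0.0353 CPM in Ifnar1 -/- libraries. Ifnar1 +/- library 2 held the most. Mecom, which encodes a stem-cell transcription factor, had 64.8, 74.5 and 38.9 CPM in Ifnar1 +/- and 71.7, 0.391 and 107 CPM in Ifnar1 -/- libraries. Gata1, an erythroid and megakaryocytic factor, had 57.1, 138 and 219 against 244, 188 and 159 CPM. Both markers were thus high in 5 of the 6, and Ifnar1 -/- library 2 lacked Mecom while keeping Gata1.

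That library stood apart in other ways. Eosinophil genes took 4.71% of its counts and 0.00314% to 0.211% of those of the other 5 (a 95% Wilson interval of 4.70% to 4.71%, which like the limit of 3 counts below covers counting error only). It was the sole library with Y-linked transcripts above 1 CPM (Ddx3y 40.0 CPM) and had 0.147 CPM of Xist, against 35.6 to 59.0 CPM in the others. Its expression profile was the farthest from each of the other 5, at distances of 0.593 to 0.999 (1 minus the rank correlation of Spearman, taken across the 2000 genes that varied most). Ifnar1 +/- library 6 was marked by red-cell genes, with globins at 11.8% of its counts against 0.310% to 1.42% in the rest. Results below were therefore also computed without Ifnar1 -/- library 2, without Ifnar1 +/- library 6 and without both.

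**Figure D1:**
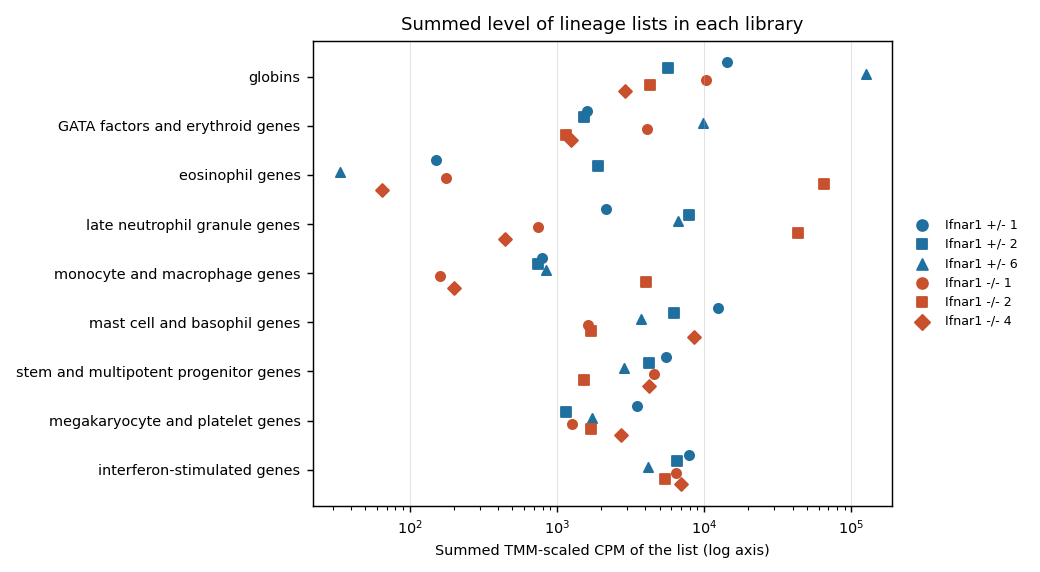
Summed TMM-scaled CPM of 9 gene lists (log axis) in each of the 6 libraries; colour gives the genotype and marker shape the replicate number. Ifnar1 -/- library 2 lies far to the right for eosinophil and late neutrophil genes, and Ifnar1 +/- library 6 for globins, while the summed interferon-stimulated genes of the 2 genotypes overlap.

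The labelled deletion cannot be read from the Ifnar1 transcript. Ifnar1 (ENSMUSG00000022967, chromosome 16, 91485238 to 91507441, plus strand, GRCm38) had 36.7, 46.0 and 48.6 CPM in the Ifnar1 +/- and 33.6, 51.4 and 45.4 CPM in the Ifnar1 -/- libraries, so the groups overlapped. A count over the whole gene includes exons that a targeted allele may keep, and the labels do not say which part is missing. Genotype therefore means the labelled genotype throughout.

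No single gene passed the test between genotypes. edgeR's quasi-likelihood test over 14410 genes called 0 at an adjusted p under 0.05, with a smallest adjusted p of 0.999. At an unadjusted p under 0.05 there were 371 genes, of which 230 were lower in Ifnar1 -/- AML (1.6% of those tested) and 141 higher (0.978%). Limma voom with quality weights also called 0, with 724 at an unadjusted p under 0.05. DESeq2 called 47 of the 13738 genes for which it gave an adjusted p, 43 lower (0.313%) and 4 higher (0.0291%). These calls depend on single libraries. In fits added after seeing the data, without Ifnar1 -/- library 2 DESeq2 called 203, of which 41 were among the 47, and without Ifnar1 +/- library 6 it called 47, of which 21 were. Calls lost in such a fit are given beside the genes below. With 3 libraries against 3, an exact permutation test of a single gene cannot go below p = 0.10. In simulated data with the dispersion of these libraries, edgeR recovered 0% of 8-fold changes, against 100% at a dispersion of 0.05. The biological coefficient of variation between these libraries was 0.682. The genes below are described by their values, by whether the 2 groups overlap, and by the DESeq2 call. In all, 516 genes (3.58%) were lower in every Ifnar1 -/- than in any Ifnar1 +/- library and 550 (3.82%) were higher. These 2 percentages are the background against which the lists are read. They are no more than random labels would give. With 3 libraries against 3, an exact permutation separates a gene, in 1 direction or the other, with a probability of 0.10.

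The interferons themselves were at the limit of detection. Of 18 type I interferon genes, 16, including Ifnb1, Ifne, Ifnk and every Ifna gene on the list, had 0 counts in all 6 libraries, which allows up to 0.147 CPM (3 counts) in the smallest effective library. The highest level of any was 0.339 CPM, for Ifnz in Ifnar1 +/- library 1.

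Receptor and JAK-STAT genes differed little in their median between genotypes. Of 18 members of the list 17 were tested, 7 lower and 10 higher, with a median log2 fold change (Ifnar1 -/- against Ifnar1 +/-, as in all that follow) of 0.12 beside 0.03 over all tested genes. Stat2, a signal transducer of type I interferon, had 34.5, 21.5 and 13.1 against 23.5, 22 and 29.3 CPM, and Ifnar2, the partner subunit, had 62.2, 73.9 and 79.0 against 51.6, 138 and 75.5 CPM. The groups overlapped for both of these genes.

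Socs3 was the 1 member of that list that was lower without overlap (5.88%, against 3.58%), and Tyk2 and Pias1 were the 2 that were higher (11.8%, against 3.82%). Socs3 encodes a feedback inhibitor of JAK kinases downstream of cytokine receptors, and had 29.7, 39.2 and 64.2 CPM in Ifnar1 +/- and 2.89, 9.25 and 3.57 CPM in Ifnar1 -/- libraries. Its log2 fold change was -3.09 (SE 0.59, DESeq2 adjusted p = 0.00147). The groups were well apart, and the value was -3.82 without Ifnar1 -/- library 2. Tyk2, the kinase bound to IFNAR1, went the other way with 50.0, 43.0 and 26.8 against 68.6, 58.4 and 80.6 CPM (log2 fold change 0.79, SE 0.32). Pias1, an inhibitor of STAT signalling, also had higher values in every Ifnar1 -/- library (109.6, 125 and 100.2 CPM) than in any Ifnar1 +/- library (78.7, 93.2 and 95.1 CPM). DESeq2 called neither Tyk2 nor Pias1.

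Among the interferon regulatory factors, 9 of 10 were tested, and Irf8 alone had groups that did not overlap. Irf8, a factor of monocyte and dendritic cell development, had 1.62, 4.21 and 6.98 CPM in Ifnar1 +/- and 1.29, 1.03 and 0.636 CPM in Ifnar1 -/- libraries (log2 fold change -2.11, SE 0.71, DESeq2 adjusted p = 0.309). Irf7, the amplifier of interferon production and itself interferon-stimulated, had 15.8, 32.4 and 23.5 against 5.38, 20.7 and 7.03 CPM. Its groups overlapped through Ifnar1 -/- library 2, while libraries 1 and 4 were below all controls.

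Of 21 nucleic acid sensors 16 were tested, and 3 were lower without overlap (18.8%): Tlr7, Ifi203 and Mndal. All 3 were near 0 in the Ifnar1 -/- libraries and passed the expression filter only through the controls. Tlr7, an endosomal sensor of single-stranded RNA, had 28.9, 0.583 and 2.09 CPM in Ifnar1 +/- and 0.0572, 0.0978 and 0.212 CPM in Ifnar1 -/- libraries (DESeq2 adjusted p = 0.00256). Its level in the controls was carried by library 1. Ddx58, which encodes the RNA sensor RIG-I and is interferon-inducible, had 11.4, 16.1 and 6.95 against 12.7, 20.9 and 18.1 CPM, so the groups overlapped. Tmem173, which encodes STING, likewise overlapped with 40.6, 75.4 and 30.9 against 60.0, 100.3 and 52.5 CPM.

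Of the interferon-stimulated genes a small subset was lower without overlap, and most overlapped. Of 79 genes on the list 64 were tested, and 9 were lower in every Ifnar1 -/- library than in any control (14.1%, against 3.58% of all genes tested), while 3 were higher (4.69%, against 3.82%). A total of 40 were below 0 and 24 above, and the median log2 fold change was -0.30. Leaving out Ifnar1 -/- library 2 gave -0.19, leaving out Ifnar1 +/- library 6 gave -0.33, and with neither it was -0.35. The range over fits without 1 library was -0.59 (without Ifnar1 -/- library 4) to -0.11 (without Ifnar1 +/- library 2). The 15 members not tested, among them Mx1, Oas2 and Ifit3, were at most 2.05 CPM in any library. The filter keeps a gene that is high in 1 group alone, so the counts cover the tested members only. Genes near 0 in the Ifnar1 -/- libraries, such as Oasl1, Mndal and Ifi203 (values below), were tested only through their control levels. A gene that low in both groups would not have been counted, so the 14.1% is no independent support for a lower level. The same holds for such genes in the other lists.

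Some antiviral effectors were in the lower subset and others were not, among them Ifit2, Oas3, Bst2 and Ifitm3, which were tested. Isg15 (ENSMUSG00000035692), which encodes a ubiquitin-like protein that is attached to other proteins, had 43.7, 53.8 and 65.0 CPM in Ifnar1 +/- libraries 1, 2 and 6 and 10.8, 3.47 and 12.1 CPM in Ifnar1 -/- libraries 1, 2 and 4. The means were 54.2 ± 10.7 CPM and 8.77 ± 4.63 CPM (SD, n = 3 each), a 6.17-fold lower level (log2 fold change -2.62, SE 0.52, DESeq2 adjusted p = 0.00205). No control came near any Ifnar1 -/- library. Rsad2 (ENSMUSG00000020641), which encodes the antiviral enzyme viperin, had 4.71, 22.2 and 27.1 against 2.80, 2.40 and 2.65 CPM (log2 fold change -2.78, SE 0.68, DESeq2 adjusted p = 0.0277). The 3 Ifnar1 -/- libraries were almost equal, while among the controls library 1 was much lower than 2 and 6.

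Ifit1 (ENSMUSG00000034459), whose protein binds foreign RNA and blocks its translation, had the smallest p between genotypes in B-lineage-low AML of all genes named here. It had 4.67, 6.08 and 7.78 CPM in Ifnar1 +/- and 0.343, 0.245 and 0.742 CPM in Ifnar1 -/- libraries (log2 fold change -3.78, SE 0.65, edgeR unadjusted p = 0.000895, DESeq2 adjusted p = 1.2e-06). All 3 controls lay close together, and the highest Ifnar1 -/- value was below 1 CPM. Oas1a (ENSMUSG00000052776), an oligoadenylate synthetase that activates RNase L, had 5.27, 12.8 and 2.64 against 0.401, 0.196 and 0.636 CPM (log2 fold change -4.05, SE 0.85, DESeq2 adjusted p = 0.000565). Here control library 2 was the highest, in contrast to Isg15, Rsad2 and Ifit1, for which it was library 6.

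The oligoadenylate synthetase-like genes and Rtp4 were lower as well. Oasl1, which restrains translation of Irf7, had 0.791, 2.18 and 2.52 CPM in Ifnar1 +/- and 0.143, 0.196 and 0.106 CPM in Ifnar1 -/- libraries (log2 fold change -3.60, SE 0.72, DESeq2 adjusted p = 0.00602). Oasl2 had 2.0, 9.15 and 1.6 against 0.916, 0.881 and 0.283 CPM (log2 fold change -2.61, SE 0.94), and DESeq2 did not call it (adjusted p = 0.378). Rtp4, a receptor transport protein induced by interferon, had 2.41, 5.96 and 1.88 against 0.572, 0.342 and 0.283 CPM (log2 fold change -3.08, SE 0.72, DESeq2 adjusted p = 0.0113). For Oasl2 and Rtp4 control library 2 was well above the other controls, and for Oasl1 control library 1 was the lowest.

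Because the groups of these genes do not overlap, leaving out a library can hardly change the sign. The fits without the libraries that stood apart therefore show only how the size varied. Without Ifnar1 -/- library 2 the log2 fold change of Isg15 was -2.28, of Rsad2 -2.76, of Ifit1 -3.54 and of Oas1a -3.75. Without Ifnar1 +/- library 6 they were -2.47, -2.36, -3.58 and -4.44, and without both -2.10, -2.32, -3.32 and -4.13. The fits without both compare 2 libraries with 2. The DESeq2 calls of Ifit1, Oas1a and Rtp4 held in all 3 of these fits. Without Ifnar1 +/- library 6 the calls of Isg15 (adjusted p = 0.0705), Rsad2 (0.407) and Oasl1 (0.116) were lost.

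Not all interferon-stimulated genes lay in that direction. Pml, Sp100 and Helz2 were higher in every Ifnar1 -/- library than in any control. Pml and Sp100 encode nuclear body proteins and Helz2 a helicase. Pml had 31.6, 60.4 and 41.1 CPM in Ifnar1 +/- and 64.9, 70.9 and 68.5 CPM in Ifnar1 -/- libraries (log2 fold change 0.62, SE 0.30), and Helz2 had 5.80, 7.15 and 6.27 against 8.73, 15.5 and 8.59 CPM (log2 fold change 0.77, SE 0.40). These differences were small beside those of the lower subset, and DESeq2 called none of the 3. The summed level of the whole list overlapped, at 4181 to 7887 CPM in Ifnar1 +/- and 5474 to 6933 CPM in Ifnar1 -/- libraries.

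**Figure D2:**
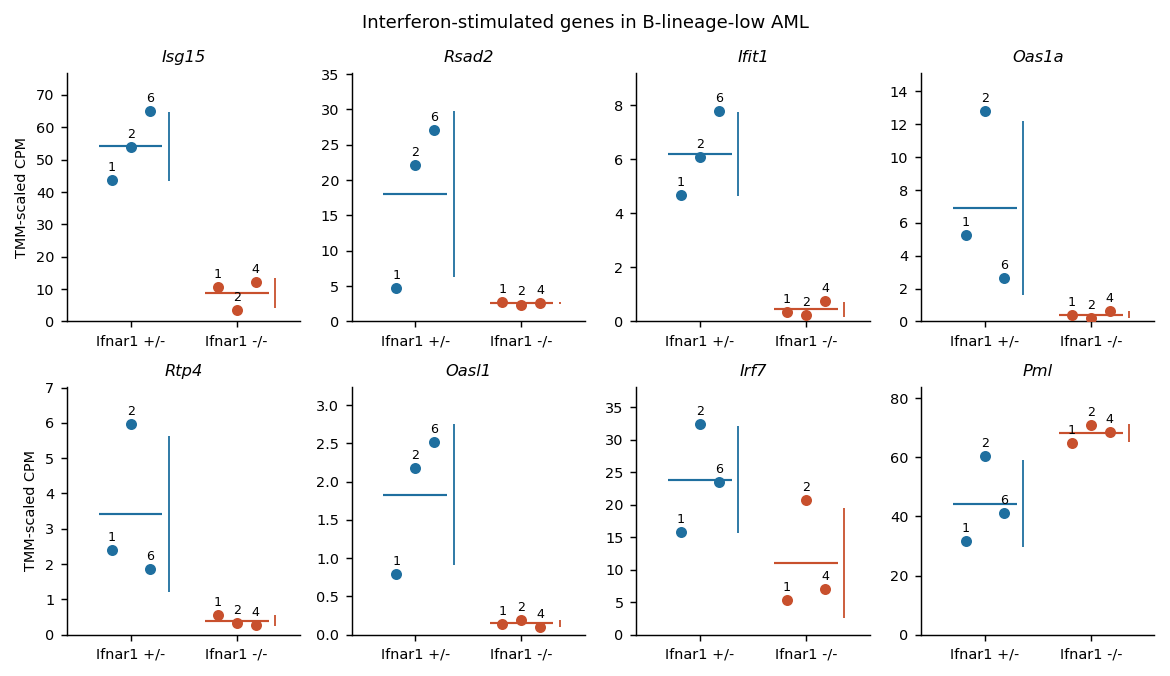
TMM-scaled CPM of 8 interferon-stimulated genes; points are libraries with their replicate numbers, horizontal bars the mean and vertical lines the mean ± SD (n = 3 each), cut at 0. Isg15, Rsad2, Ifit1, Oas1a, Rtp4 and Oasl1 do not overlap and are lower in Ifnar1 -/- AML, Irf7 overlaps, and Pml is higher.

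Mndal and Ifi203 are transcribed far more in B-lineage-high AML, so B-lineage transcripts are given beside them. Mndal had 3.81, 0.890 and 3.84 CPM in Ifnar1 +/- and 0, 0.0489 and 0.177 CPM in Ifnar1 -/- libraries (log2 fold change -5.18, SE 1.30, DESeq2 adjusted p = 0.00602, and 0.226 without Ifnar1 +/- library 6), which is 0 to 5 counts in the latter. Ifi203 had 0.377, 0.461 and 0.584 against 0.0858, 0 and 0.0353 CPM. In the 5 B-lineage-high libraries Mndal stood at 30.7 to 51.1 CPM and Ifi203 at 20.3 to 49.1 CPM whatever the genotype (scaled over all 11 libraries). The traces of Ebf1 given above were higher in the 3 controls, as was Pax5, another B-lineage factor (0.188, 0.983 and 0.0922 against 0.0572, 0.0489 and 0 CPM). Within the controls library 2 was the highest for Ebf1 and Pax5 and the lowest for Mndal. Of the 24 B-lineage genes 9 passed the filter and the summed level of all 24 was 79.4 to 241 CPM in Ifnar1 +/- and 67.7 to 210.1 CPM in Ifnar1 -/- libraries, so the totals overlapped. The median log2 fold change of the 9 was -0.14, and -0.39 for the same 9 without both libraries that stood apart. Filtered anew without both, 14 were tested, 11 were below 0 and the median was -1.58. It was -1.31 without Ifnar1 -/- library 2 alone and -1.42 without Ifnar1 +/- library 6 alone. In a fit of all 11 libraries 23 were tested and 18 were below 0, with a median of -1.65 in B-lineage-low AML. What part B-lineage RNA has in the difference of Mndal and Ifi203 was not tested.

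Genes inducible by interferon gamma and class I antigen presentation gave few differences. Of 25 interferon gamma genes 17 were tested, and Irgm1 and Tgtp1, both interferon-inducible GTPases, were lower without overlap (11.8%). Irgm1 had 73.6, 55.5 and 72.1 CPM in Ifnar1 +/- and 46.5, 15 and 48.2 CPM in Ifnar1 -/- libraries. All 23 class I genes were tested, with a median of -0.22, 1 lower (Erap1) and 1 higher (Tap2) without overlap (4.35% in each direction). H2-D1, a classical class I heavy chain, had 8052, 3945 and 2591 against 1879, 6841 and 5689 CPM, and B2m, the light chain, had 3911, 1083 and 753 against 485, 824 and 1199 CPM. Both H2-D1 and B2m overlapped widely, with control library 1 the highest.

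Class II antigen presentation was lower in 4 of its 11 genes without overlap (36.4%, against 3.58%). These were H2-Aa, H2-Ab1, H2-Eb1 and Ctss, the first 3 being chains of the class II molecule and the last the protease that trims its invariant chain. H2-Aa had 13.5, 20.8 and 29.7 CPM in Ifnar1 +/- and 0.372, 1.91 and 4.88 CPM in Ifnar1 -/- libraries (log2 fold change -3.16, SE 0.93, DESeq2 adjusted p = 0.0762). H2-Eb1 had 9.91, 14.6 and 15.7 against 1.32, 2.30 and 5.44 CPM (log2 fold change -2.15, SE 0.62, DESeq2 adjusted p = 0.12). Cd74, the invariant chain, overlapped with 98.0, 191 and 176 against 156, 26.4 and 54.1 CPM. The list median was -0.32, and 0.03 without Ifnar1 -/- library 2.

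A part of the macrophage list was lower in Ifnar1 -/- AML. All 26 monocyte and macrophage genes were tested, 19 were below 0, and 9 were lower without overlap (34.6%, against 3.58%), with none higher. The median log2 fold change was -1.36, and -2.42 without Ifnar1 -/- library 2. Mrc1, the macrophage mannose receptor, had 7.08, 14.2 and 24.8 CPM in Ifnar1 +/- and 1.89, 2.5 and 4.28 CPM in Ifnar1 -/- libraries (log2 fold change -2.41, SE 0.61, DESeq2 adjusted p = 0.0449). C1qc, a chain of complement C1q made by tissue macrophages, had 8.93, 6.14 and 11.2 against 1.72, 2.30 and 3.18 CPM (log2 fold change -1.87, SE 0.48, DESeq2 adjusted p = 0.0219). The other chains C1qa and C1qb were lower without overlap too. Vcan, a proteoglycan of monocytes, had 0.942, 0.675 and 3.11 against 0.0858, 0.0978 and 0.0353 CPM, and Ms4a6c had 4.45, 1.69 and 13 against 0.372, 0.391 and 0.742 CPM (log2 fold changes -4.37 and -3.66, DESeq2 adjusted p = 0.0169 and 0.0120). Control library 6 was the highest for Mrc1, C1qc, Vcan and Ms4a6c, and without it DESeq2 called none of the 4 (adjusted p = 0.411, 0.207, 0.210 and 0.199). Without Ifnar1 -/- library 2 the call of Mrc1 was lost as well (0.0575).

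The macrophage list was not uniform. Its summed level was 746 to 849 CPM in Ifnar1 +/- and 160.1 to 4059 CPM in Ifnar1 -/- libraries, and Ifnar1 -/- library 2 was the highest of all 6. That library had 1635 CPM of Ly6c2, 883 CPM of Itgam and 722 CPM of Adgre1, which monocytes share with neutrophils or eosinophils, against at most 56.3, 89.2 and 49.0 CPM for Adgre1, Itgam and Ly6c2 in the others. No gene of the list was at 0 in all 6 libraries. In bulk RNA fewer cells of a type cannot be told apart from less RNA per cell, here or in any list that follows. Macrophages are among the cells that transcribe interferon-stimulated and class II genes, and the part of their RNA in the lower Isg15, Rsad2 and H2-Aa levels was not tested.

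Further genes that DESeq2 called lower are known from macrophages but were on no list, and they were picked after their values were seen. Cd163, the haemoglobin scavenger receptor, had 8.44, 9.15 and 50.0 CPM in Ifnar1 +/- and 0.858, 1.22 and 1.52 CPM in Ifnar1 -/- libraries. Ccl24, an eosinophil-attracting chemokine, had 1.58, 26.7 and 53.4 against 0.200, 0.391 and 0.707 CPM. Clec4a1, a C-type lectin receptor of myeloid cells, had 2.45, 9.55 and 6.73 against 0.429, 0.147 and 0.460 CPM (log2 fold change -4.14, SE 0.80, DESeq2 adjusted p = 7.76e-05). DESeq2 called Cd163, Ccl24 and Clec4a1 also without either library that stood apart. As for Mrc1, the controls of these genes varied several-fold among themselves while the Ifnar1 -/- libraries stayed low. Other genes called lower and on no list were less stable. Without Ifnar1 +/- library 6 the DESeq2 calls of Clec4a3 (adjusted p = 0.411), Wfdc17 (0.107) and Dab2 (0.422) were lost.

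Mast cell and basophil genes were low in the same direction, with wide spread. All 13 tested members of 14 had negative log2 fold changes, with a median of -1.03, but Tpsb2 alone did not overlap (7.69%). Tpsb2, a mast cell tryptase, had 157, 59.8 and 24.2 CPM in Ifnar1 +/- and 1.46, 3.03 and 6.79 CPM in Ifnar1 -/- libraries (log2 fold change -4.42, SE 0.94, DESeq2 adjusted p = 0.000409). Mcpt8, a basophil protease, had 48.7, 128 and 6.55 against 3.03, 7.09 and 11.6 CPM, and control library 6 lay among the Ifnar1 -/- values. Prss34, another basophil protease, had 77.2, 99.1 and 2.49 against 4.95, 8.76 and 0.530 CPM. Hdc, which makes histamine, and Cpa3, a mast cell protease, had the highest levels of the list and overlapped. Hdc had 4369.9, 3401 and 1367 against 829, 1473 and 2844 CPM, and Cpa3 had 3509, 331 and 444 against 113, 32.2 and 1177 CPM. The summed list was 3758 to 12531 CPM in Ifnar1 +/- and 1624 to 8594 CPM in Ifnar1 -/- libraries.

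Among genes downstream of Flt3-ITD, 5 of the MAPK feedback list were lower without overlap, and STAT5 targets were evenly split. Of 17 feedback genes 16 were tested and 13 were below 0. The 5 (31.2%, against 3.58%) were Spry2 and Spred1, which are inhibitors of the pathway, and Etv1, Phlda1 and Egr1, which are induced by it. The median was -0.67, and -0.95 without both outlying libraries. Etv1, an ETS factor, had 0.754, 3.68 and 2.15 CPM in Ifnar1 +/- and 0.0858, 0 and 0.141 CPM in Ifnar1 -/- libraries (log2 fold change -4.72, SE 1.13, DESeq2 adjusted p = 0.00593, and 0.107 without Ifnar1 +/- library 6). Spry2, an inhibitor of receptor tyrosine kinase signalling, had 30.9, 34.9 and 28.8 against 13.2, 1.03 and 17.1 CPM. Dusp6, the phosphatase of ERK, overlapped with 207, 152 and 51.3 against 67.2, 60.4 and 129 CPM. DESeq2 called Etv1 alone of these 3.

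Of the 19 STAT5 targets, all tested, 9 were below 0 and 10 above, and the median was 0.07. Besides Socs3, described above, only Cish was lower without overlap (10.5% in all). Cish, an inhibitor of STAT5 signalling, had 699, 477 and 484 CPM in Ifnar1 +/- and 252, 300.1 and 422 CPM in Ifnar1 -/- libraries (log2 fold change -0.77, SE 0.31, DESeq2 adjusted p = 0.953). Flt3 itself had 109, 143 and 86.6 against 216, 189.6 and 126 CPM, so the groups overlapped between 126 and 143 CPM. Pim1, a kinase gene induced by STAT5, had 609, 425 and 1227 against 299, 1108 and 386 CPM.

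The level of immediate early genes depended on whether Ifnar1 -/- library 2 was included. Of 20 tested, Egr1, Ier3 and Klf4 were lower without overlap (15%). Ier3, induced within minutes of a growth signal, had 227, 129.5 and 368 CPM in Ifnar1 +/- and 23, 81.2 and 83.8 CPM in Ifnar1 -/- libraries (log2 fold change -1.95, SE 0.62). Egr1, an early zinc finger factor, had 25.1, 66.4 and 121 against 5.52, 24.1 and 17.9 CPM (log2 fold change -2.17, SE 0.76). The list median of -0.23 was -1.43 without Ifnar1 -/- library 2, which had 241 CPM of Fos against at most 18.5 CPM in any other library. Egr1 is also on the list of feedback genes, and Klf4 on that of macrophage genes.

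**Figure D3:**
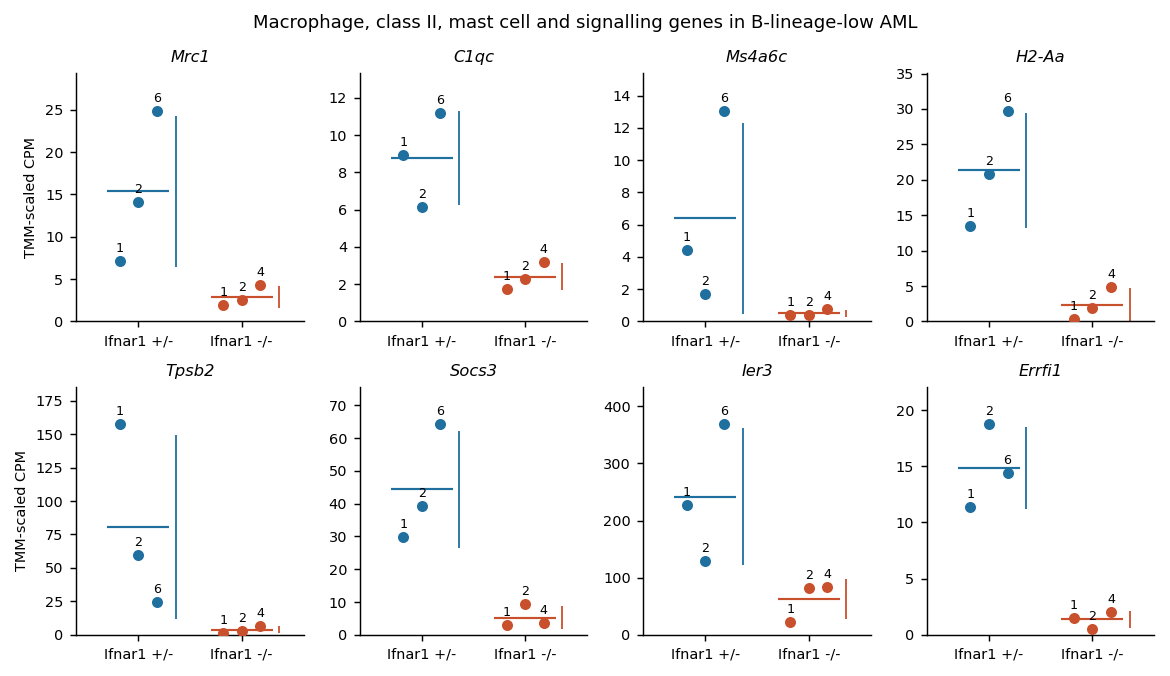
TMM-scaled CPM of 8 genes of macrophages (Mrc1, C1qc, Ms4a6c), class II (H2-Aa), mast cells (Tpsb2) and signalling (Socs3, Ier3, Errfi1), drawn as in the plot of interferon-stimulated genes (bar: mean; vertical line: ± SD, n = 3 each, cut at 0). In every panel the 3 Ifnar1 -/- libraries lie below the 3 controls.

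Other genes with the smallest p were low in Ifnar1 -/- AML at modest levels. Errfi1, an inhibitor of the EGF receptor family, had 11.4, 18.7 and 14.4 CPM in Ifnar1 +/- and 1.49, 0.538 and 2.05 CPM in Ifnar1 -/- libraries (log2 fold change -3.44, SE 0.61, DESeq2 adjusted p = 9.73e-06). Plet1, a surface protein of progenitors and epithelium, had 8.59, 1.38 and 4.18 against 0.172, 0.0978 and 0.0353 CPM (log2 fold change -5.46, SE 1.03, DESeq2 adjusted p = 7.76e-05). The controls of Errfi1 were close together, those of Plet1 were not. The rest were near the limit of counting in the Ifnar1 -/- libraries. Flrt2, an adhesion protein, had 3.24, 1.78 and 1.14 against 0.0572, 0 and 0 CPM (DESeq2 adjusted p = 0.00129). Cd4, the T cell co-receptor also found on some myeloid cells, had 0.490, 0.614 and 0.707 against 0.0286, 0 and 0.0353 CPM, and Fcmr, an IgM receptor, had 0.527, 0.461 and 0.523 against 0.0286, 0 and 0.0353 CPM. Gramd3 had 0.490, 0.461 and 0.461 CPM in the controls and 0 counts in all 3 Ifnar1 -/- libraries, which is at least 13.1-fold lower (3 counts taken over the group). DESeq2 gave no adjusted p for Cd4, Fcmr and Gramd3.

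The 4 genes that DESeq2 called higher were Krtcap3, Haao, Tmem215 and Wdr25. Haao, an enzyme of the kynurenine pathway from tryptophan to NAD, had 10.5, 14.8 and 10.1 CPM in Ifnar1 +/- and 37.8, 50.6 and 32.5 CPM in Ifnar1 -/- libraries (means 11.8 ± 2.60 and 40.3 ± 9.29, SD, n = 3 each). Its log2 fold change was 1.77 (SE 0.32, DESeq2 adjusted p = 0.00205). Krtcap3, a membrane protein, had 0.716, 0.215 and 0.215 against 4.41, 19.0 and 8.09 CPM (log2 fold change 4.78, SE 0.89, DESeq2 adjusted p = 2.26e-05). Both were well apart, and Krtcap3 was nearly absent from the controls. Tmem215 had 0.339, 0.829 and 0.646 against 8.27, 8.41 and 2.12 CPM (log2 fold change 3.36, DESeq2 adjusted p = 0.00404), and Wdr25, a WD-repeat protein, had 4.41, 9.55 and 4.15 against 22.6, 21.4 and 20.2 CPM (log2 fold change 1.83, DESeq2 adjusted p = 0.0413). The 3 Ifnar1 -/- libraries of Wdr25 were within 3 CPM of each other. Without Ifnar1 +/- library 6 the DESeq2 calls of Tmem215 (adjusted p = 0.0525) and Wdr25 (0.217) were lost, and without Ifnar1 -/- library 2 that of Wdr25 (0.0575).

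The next 6 higher genes by p were at higher levels and differed less. Sgms1, a sphingomyelin synthase, had a log2 fold change of 0.99 (SE 0.27) with 56.3, 56.4 and 60.9 CPM in the controls and 86.2, 144 and 114 CPM in Ifnar1 -/- libraries. Khk, the fructose kinase, had 1.27 (SE 0.35) with 44.8, 100.2 and 67.5 against 189, 155 and 169 CPM. Csk, the kinase that restrains Src family kinases, had 1.11 (SE 0.32) with 91.5, 141 and 74.8 against 198, 257 and 207 CPM. Dennd1c, Arel1 and Selenbp1 had log2 fold changes of 1.74, 1.17 and 1.13. In all 6 the groups did not overlap, and DESeq2 called none of them.

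The lower value of red-cell genes rested on 1 control. All 26 erythroid genes were tested, 21 were below 0 and the median was -1.71, but it was 0.25 without Ifnar1 +/- library 6. For the 7 globins tested the values were -3.02 and -0.65. Slc4a1, the red-cell anion exchanger, had 81.6, 39.7 and 1051 CPM in Ifnar1 +/- and 34.2, 26.3 and 9.79 CPM in Ifnar1 -/- libraries. It was the only erythroid gene without overlap (3.85%), and its log2 fold change of -4.06 was -1.37 without library 6. Hba-a1, an alpha globin gene whose near-identical copy Hba-a2 may share its reads, had 3185, 1412 and 33690.5 against 2643, 1039.7 and 648 CPM.

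The medians of granulocyte genes turned with Ifnar1 -/- library 2. The median of 11 tested eosinophil genes was 4.21 with that library and -2.76 without it, and that of 18 late neutrophil granule genes was 0.02 and -4.65. Prg2, the eosinophil major basic protein, had 77.9, 1071 and 0.307 CPM in Ifnar1 +/- and 59.3, 45224 and 0.141 CPM in Ifnar1 -/- libraries, and Ngp, a neutrophil granule protein, had 226, 1975 and 1991 against 112, 22805 and 0.141 CPM. In Ifnar1 -/- libraries 1 and 4 both were below control library 2. Of 19 azurophil granule and granulocyte-monocyte progenitor genes 18 were tested, 9 below and 9 above 0, with a median of 0.21, and -1.94 without Ifnar1 -/- library 2. That library had 5095 CPM of the summed list. Elane, Ctsg and Irf8 were lower without overlap (16.7%, against 3.58%), the first 2 being proteases of the azurophil granule. Elane had 1.43, 9.92 and 31.8 against 0.0286, 1.37 and 0 CPM (log2 fold change -4.99, SE 2.01), and Ctsg had 1.43, 1.6 and 2.21 against 0.114, 0.587 and 0.177 CPM (log2 fold change -2.60, SE 0.78). Chil3, a secreted lectin of neutrophils and macrophages, was also lower throughout, with 255, 426 and 1869 against 128, 50.8 and 18.8 CPM (log2 fold change -3.69, DESeq2 adjusted p = 0.0449, 0.748 without Ifnar1 +/- library 6 and 0.0505 without Ifnar1 -/- library 2).

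**Figure D4:**
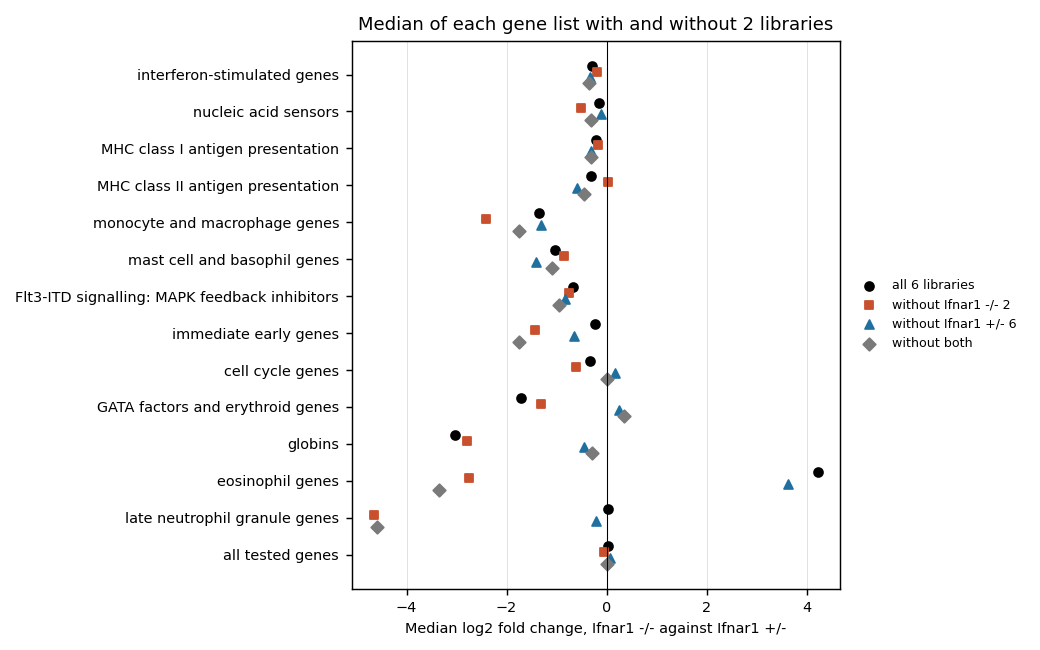
Median log2 fold change of 13 gene lists and of all tested genes, from all 6 libraries and from fits without Ifnar1 -/- library 2, without Ifnar1 +/- library 6 and without both. Interferon-stimulated, sensor, class I, macrophage, mast cell, MAPK feedback, immediate early and globin lists stay below 0 in all 4 fits. Class II, eosinophil, late neutrophil, erythroid and cell cycle lists do not. The size of the globin median rests on Ifnar1 +/- library 6. In settings not drawn, the sensor median was 0.30 (filter of 5 CPM) and the class I median 0.12 (without Ifnar1 +/- library 2).

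Stem-cell, megakaryocyte and Hox genes had no member whose groups did not overlap. Of 30 stem and multipotent progenitor genes 26 were tested, 11 below and 15 above 0, with a median of 0.13. Ly6a, the stem-cell antigen Sca-1 and an interferon-inducible gene, had 1980.4, 1168 and 814 CPM in Ifnar1 +/- and 1270.5, 2.01 and 667 CPM in Ifnar1 -/- libraries. Ifnar1 -/- library 2 was far below the other 5. Hoxa9, a leukaemia-associated homeobox gene, had 63.1, 74.1 and 43.2 against 88.0, 51.6 and 69.7 CPM, and Hoxd13, the partner gene of the fusion, had 7.50, 5.28 and 7.62 against 5.27, 5.04 and 5.66 CPM. The median of 34 cell cycle genes was -0.34 with 32 below 0, and 0.17 without Ifnar1 +/- library 6, so that direction rested on 1 control.

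Survival, inflammation and receptor genes gave few differences. Of 20 tested NF-kB inflammation genes Il1a alone was lower without overlap (5%), with 1.32, 4.11 and 3.17 CPM in Ifnar1 +/- and 0.286, 0.587 and 0.742 CPM in Ifnar1 -/- libraries (log2 fold change -2.41, SE 0.70, DESeq2 adjusted p = 0.12). It encodes an early inflammatory cytokine. Among 25 p53 targets and BCL2 family genes Aen, a p53-induced nuclease, was the 1 without overlap (4%). Cxcr4, the marrow homing receptor, had 16.7, 26.9 and 15.9 against 55.5, 157 and 26.7 CPM (log2 fold change 2.01, SE 0.68), with an overlap between 26.7 and 26.9 CPM. The log2 fold change of Cxcr4 was 1.03 without Ifnar1 -/- library 2.

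Genes near Ifnar1 on chromosome 16 were examined because a targeted allele can carry flanking sequence with it. Of 39 genes 30 were tested, with a median of -0.04. Mis18a and Chaf1b, which act in centromere and chromatin assembly, were lower without overlap (6.67%), and Tiam1, an activator of RAC1, was higher (3.33%). Mis18a had 55.2, 52.1 and 61.3 CPM in Ifnar1 +/- and 42.1, 36.1 and 38.5 CPM in Ifnar1 -/- libraries, and Tiam1 had 12.1, 9.73 and 4.15 against 13.5, 23.1 and 16.6 CPM. These shares are near the background of 3.58% and 3.82%.

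The genotype difference was then compared with that in B-lineage-high AML (Ifnar1 +/- 3, 4 and 5, Ifnar1 -/- 3 and 5) in 1 fit of all 11 libraries. edgeR called 0 of 16728 genes for a difference between the 2 differences, with 512 (3.06%) at an unadjusted p under 0.05, and DESeq2 called 17 (0.104%). The genes with the smallest p whose difference was lower in B-lineage-low AML were Nrip1, Tubb6 and Srgap1. Nrip1, a nuclear receptor co-repressor, had 30.2, 36.9 and 46.8 CPM in Ifnar1 +/- and 23.6, 14.9 and 20.2 CPM in Ifnar1 -/- B-lineage-low libraries, and 2.21, 1.34 and 1.63 CPM in Ifnar1 +/- and 12.4 and 6.83 CPM in Ifnar1 -/- B-lineage-high ones. It was thus lower without IFNAR1 in one class and higher in the other (log2 difference of -3.44, SE 0.50, DESeq2 adjusted p = 4.94e-07). Tubb6, a beta tubulin, had 137, 116 and 107 against 30.6, 9.24 and 43.2 CPM in the low class and 7.41, 4.91 and 3.81 against 12.6 and 23 CPM in the high class (log2 difference -3.85, SE 0.76, DESeq2 adjusted p = 0.00606). Ccl24 was called as well, with 1.68, 29.0 and 56.5 against 0.216, 0.404 and 0.733 CPM in the low class and 0.181, 0.254 and 0 against 0.252 and 2.89 CPM in the high class (log2 difference -9.46, SE 2.16, DESeq2 adjusted p = 0.00397). Gpd1l, Tep1 and Gsto2 had the smallest p in the other direction, with log2 differences of 1.41, 1.81 and 4.56, and DESeq2 called none of these 3.

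Medians of the interferon-stimulated genes were close in the 2 classes. In this fit 73 were tested, with medians of -0.35 in B-lineage-low and -0.47 in B-lineage-high AML, and 47 were below 0 in the low class, 57 in the high class and 39 in both. For the difference between classes 4 of the 73 had an unadjusted p under 0.05, beside 3.06% of all genes, and edgeR called none of them. Isg15 had 46.5, 58.5 and 68.8 CPM in the B-lineage-low controls but 5.57, 3.96 and 4.32 CPM in the B-lineage-high ones, where Ifnar1 -/- libraries had 1.69 and 8.44 CPM. The log2 fold change in the high class was 0.14 (SE 0.66), and the difference between classes was -2.78 (SE 0.88, edgeR unadjusted p = 0.0111, DESeq2 adjusted p = 0.395). Oas1a behaved likewise, with 1.31 in the high class and a difference of -5.39 (SE 1.63). Oasl1 and Rtp4 had close values in the 2 classes with wide errors, at -3.34 and -2.89 in the high class and differences of -0.30 (SE 1.42) and -0.21 (SE 1.21). Mndal was called by DESeq2 for a difference between classes (-5.08, SE 1.14, adjusted p = 0.00738), and Socs3 was not (-3.74, SE 0.87, adjusted p = 0.0747). The macrophage list had a median of -1.40 in the low class and 0.07 in the high class.

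**Figure D5:**
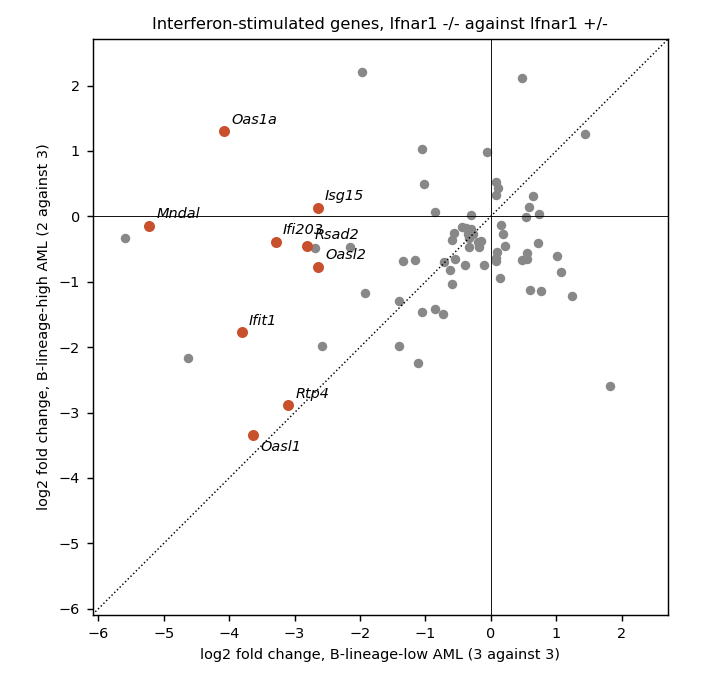
Log2 fold change of 73 interferon-stimulated genes in B-lineage-low (x axis) and B-lineage-high AML (y axis) from 1 fit of all 11 libraries; each point is a gene and the dotted line marks equal values. Oasl1 and Rtp4 lie near the line at strongly negative values, whereas Isg15, Oas1a and Mndal are far below 0 on the x axis only.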

How the data were processed

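RNA sequencing of AML samples gave 1 deposited table of estimated counts per gene, in which part of the values are not whole. bcl2fastq and DRAGEN are named in the submitters' processing notes. What genome build and annotation were used is not given in the sources used here, and positions were taken from GENCODE M21 and promoters from RefSeq (GRCm38.p6), matched by gene identifier and symbol. The estimated counts, as deposited by the authors, were rounded to whole numbers. Of 55774 rows, 287 repeat rows of identifiers listed more than once were left out, which left 55487 genes.

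Libraries were taken by Ebf1 under 100 CPM. Genes were filtered with filterByExpr and compared between genotypes with edgeR's quasi-likelihood test (edgeR 4.0.16, limma 3.58.1, R 4.3.3), with TMM scaling and Benjamini-Hochberg adjustment over all tested genes at 0.05. It was checked on simulated data with 200 genes changed. DESeq2 (1.42.0), limma voom, other scalings and filters, a replicate block and fits without single libraries were alternatives. A DESeq2 adjusted p in the text comes from that alternative. The interaction was fitted over all 11 libraries. Gene lists are described by counts and medians, with no set test. A fit without a library filters anew, so a few more members can enter its median, except where the same members are named.

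Named genes are the markers, the genes with the smallest p in each direction, DESeq2 calls, the listed interferon genes whose groups do not overlap, and up to 4 members of each list by p with the most abundant cell type genes. A few others (among them Pax5, Cd74, Dusp6, Pim1, Flt3, Ly6a, Hoxa9, Hoxd13, H2-D1, B2m, Cxcr4 and Fos) were added for their known role after their values were seen. The libraries, members and lists were chosen with earlier results of these data known. Whether the samples are separate mice is not in the labels, and each p-value reflects only how much these samples vary, which may be technical.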

Additional observations from a re-analysis of the deposited data

How the results depend on the processing

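The count of genes passing in edgeR was 0 with all 6 libraries. It remained 0 with DESeq2's size factors, upper-quartile factors, no filter, a filter of 5 CPM in 3 libraries, no robust fit, limma voom and a threshold of 0.10, and in each fit that left out 1 library (lowest 0, highest 0) or both that stood apart. DESeq2 called 47. In fits added after seeing the data it called 203 without Ifnar1 -/- library 2 (41 of the 47 among them), 47 without Ifnar1 +/- library 6 (21 shared) and 168 without both (22 shared). The cause was not tested. For the difference between the B-lineage classes edgeR called 0 under each setting and DESeq2 called 17. The median of interferon-stimulated genes was -0.12 with the filter of 5 CPM, and -0.59 to -0.11 with 1 library left out. That of macrophage genes was -2.42 to -1.16 with 1 library left out, and -2.42 was the value without Ifnar1 -/- library 2. The median of nucleic acid sensors turned from -0.16 to 0.30 with the filter of 5 CPM. That of class I genes turned from -0.22 to 0.12 without Ifnar1 +/- library 2. The 46 genes with a printed fold change kept their direction in each of the 17 alternatives that gave a value (the filter of 5 CPM left 26 of them, the others all 46), and 23 passed in DESeq2. Genes named because their groups did not overlap can hardly change direction when a library is left out. The threshold of 0.10 uses the same fit as the main result. The kept directions are therefore no independent support.

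The replicate block called 0 genes (433 at an unadjusted p under 0.05). Only numbers 1 and 2 occur in both genotypes, and the deviations of same-numbered libraries from their group means correlated at -0.143 and -0.00594. Ifnar1 -/- library 2 weighs heavily on the means of its group, so these 2 values cannot decide whether the numbers pair the samples. The labels name no pairing. Genes with a few counts in the Ifnar1 -/- libraries, such as Mndal, Etv1, Vcan and Plet1, have fold changes that depend on the prior count.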
